A study of Mus musculus with 10 samples.

Results

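The 10 genes described here are neighbours of Tnfaip3, the gene of the A20 protein, on mouse chromosome 10. They were taken by their symbols (Heca, Nhsl1, Hebp2, Arfgef3, Perp, Ifngr1, Il22ra2, Il20ra, Pex7 and Map3k5), Tnfaip3 itself was set aside as the reference, and all 10 were found among the 48897 rows of each expression table. The rule names genes near Tnfaip3 and uses no measured value, but the list does not hold every gene of the stretch, and some genes that are not on it lie nearer than Heca, the farthest member. RNA-seq was available for EpCAM+ CD45- prostate epithelial cells from 3-month-old C57BL/6 mice, in 3 control libraries and 3 labelled Arid1a KO (A to C in each group), and for the mouse prostate cancer line Myc-CaP (FVB strain), in 2 empty vector libraries and 2 labelled Arid1a KO. All 6 mice, controls included, carried a further engineered deletion in the prostate, so the controls were not wild type, and the deletions were made with Probasin-Cre, which acts in prostate epithelium. The Myc-CaP deletion was made with CRISPR guides, and whether the cells were a clone or a pool is not stated in the sources used here. The study also sequenced tumours grown from these cells, and the labels name the cell line only. Nothing says that libraries of a group came from separate cultures, so the Myc-CaP p-values measure the spread between libraries, which may be technical.

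A20 is a ubiquitin-editing enzyme that restrains NF-kB signalling, and its gene is itself switched on by NF-kB. Genes that lie within the same stretch of a chromosome can share enhancers, and a change in an enhancer can then move several genes in the same direction. Arid1a is the DNA-binding subunit of a SWI/SNF chromatin remodelling complex, which opens such elements, and the question here was whether the neighbours moved with Tnfaip3 when Arid1a was deleted. The neighbours themselves have unrelated roles. Ifngr1, Il20ra and Il22ra2 encode cytokine receptor chains, Map3k5 a stress-activated kinase (ASK1), Perp a desmosomal membrane protein, Pex7 a peroxisomal import receptor, Hebp2 a haem-binding protein, Arfgef3 a protein related to the exchange factors of Arf GTPases, Nhsl1 a regulator of the actin cytoskeleton at the cell edge, and Heca the counterpart of the Drosophila gene headcase.

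On GRCm38 (RefSeq annotation), Tnfaip3 lies on the minus strand at chr10:19000910-19015410. At lower coordinates follow, by distance of their annotated start from that of Tnfaip3, Perp at 170.3 kb (chr10:18845071-18857073), Arfgef3 at 272 kb (chr10:18588011-18743758), Hebp2 at 469 kb (chr10:18540123-18546076), Nhsl1 at 698 kb (chr10:18317665-18533892) and Heca at 1067 kb (chr10:17899040-17948067). At higher coordinates lie Ifngr1 at 577 kb (chr10:19591949-19610229), Il22ra2 at 607 kb (chr10:19622028-19634681), Il20ra at 696 kb (chr10:19711673-19760053), Pex7 at 892 kb (chr10:19860090-19907674) and Map3k5 at 919 kb (chr10:19934101-20142750). All 10 are protein-coding genes. Il20ra overlaps the annotated gene Gm33332, Arfgef3 overlaps Gm32926 and Nhsl1 overlaps Gm18942. The study's methods describe strand-specific counting, so reads of an overlapping gene on the same strand could not be told apart.

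The promoters were compared because the gene of A20 and its neighbours could share binding sites at their starts. RefSeq promoter sequences (GRCm38.p6) were found for 8 of the 10 neighbours, with 9 starts, and the 250 bases before each start were searched on both strands for a 10-base NF-kB site, for the AP-1 site TGANTCA and for a 10-base interferon response element. Below are the main promoter of Tnfaip3 and those of the neighbours with the largest rise and the largest fall in the epithelium on the log2(RPKM + 1) scale, 5′ to 3′ on the strand of the gene, with matches in capitals.
Tnfaip3, minus strand, chr10:19015411-19015660: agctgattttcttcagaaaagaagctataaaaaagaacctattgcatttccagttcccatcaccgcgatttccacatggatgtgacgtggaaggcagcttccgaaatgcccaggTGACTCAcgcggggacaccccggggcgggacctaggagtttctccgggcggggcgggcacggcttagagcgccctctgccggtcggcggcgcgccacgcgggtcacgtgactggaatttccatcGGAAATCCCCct
Ifngr1, plus strand, chr10:19591699-19591948: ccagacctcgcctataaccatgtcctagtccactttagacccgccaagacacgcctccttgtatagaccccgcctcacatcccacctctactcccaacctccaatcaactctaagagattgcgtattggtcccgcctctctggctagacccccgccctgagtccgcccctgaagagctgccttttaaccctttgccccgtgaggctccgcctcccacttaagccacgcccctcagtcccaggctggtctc
Hebp2, minus strand, chr10:18546077-18546326: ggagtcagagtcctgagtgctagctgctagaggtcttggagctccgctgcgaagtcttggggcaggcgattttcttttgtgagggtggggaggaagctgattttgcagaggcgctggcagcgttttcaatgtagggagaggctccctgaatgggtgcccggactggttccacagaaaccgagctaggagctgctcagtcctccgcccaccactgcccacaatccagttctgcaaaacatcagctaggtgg
The capitals in the Tnfaip3 promoter mark a TGANTCA match 136 to 130 bases before the start and an NF-kB match, on the opposite strand, 12 to 3 bases before it. The other annotated Tnfaip3 start had an NF-kB match 90 to 81 bases before it. No promoter of the 8 neighbours held the NF-kB site or the interferon element, and 1 of the 8, Il20ra, held TGANTCA, 164 to 158 bases before the start. For Il20ra, Map3k5 and Nhsl1, the starts of the promoter sequences lay inside the gene intervals given above, not at the starts used for the distances. Of all 32851 promoter windows of this length, 4.65% held the NF-kB site, 6.75% held TGANTCA and 2.98% held the interferon element. The 3 patterns did not overlap each other in these promoters, and a match or its absence describes letters only, not binding.

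The references were read first. Tnfaip3 was at 87.5, 79.1 and 82.9 RPKM (reads per length of gene and per mapped read of that library) in controls A, B and C, and at 155, 172 and 149.6 RPKM in the libraries labelled Arid1a KO. The groups did not overlap, and Tnfaip3 rose in the epithelium (log2 fold change 0.93 ± 0.08 SE, adjusted p = 8.5e-05). In Myc-CaP it was at 68.3 and 72.5 TPM (the like unit, scaled to the same sum in each library) with the empty vector and at 44.4 and 45.6 TPM in Arid1a KO, and it fell by 0.63 on the log2 scale (SE 0.06, adjusted p = 0.011). Tnfaip3 thus moved in opposite directions in the 2 tables. Arid1a was not lower in the epithelium libraries labelled Arid1a KO, at 31.1, 28.8 and 30.8 RPKM against 27.8, 21.9 and 26.5 RPKM in controls A, B and C. Which exons were deleted is not given in the sources used here, a gene total does not show them, and directions in the epithelium are given for the libraries labelled Arid1a KO. In Myc-CaP, Arid1a was at 60.5 and 61.0 TPM with the empty vector and 39.5 and 40.3 TPM in Arid1a KO.

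In the epithelium, the neighbours split in direction while Tnfaip3 rose. Of the 10, 8 had a mean of at least 0.5 RPKM and were tested, 5 passed (adjusted p under 0.05, limma), 2 of them higher (Ifngr1 and Heca) and 3 lower (Hebp2, Arfgef3 and Pex7) in the libraries labelled Arid1a KO, and 3 did not pass (Perp, Map3k5 and Nhsl1). Over all 16275 genes tested, 57.1% passed, 27.5% higher and 29.6% lower, so the neighbours' 5 of 8 is near the background. Without library A or without library B labelled Arid1a KO, 2 of the 8 passed (Ifngr1 and Hebp2 in both cases). Of all 16275 genes, 7921 and 7784 passed in these fits. Of the genes that passed with all libraries, 48.1% were higher, or 64.6% after each library was rescaled to the same sum. After that rescaling, the neighbours that passed were 4 higher (Ifngr1, Heca, Perp and Map3k5) and 2 lower (Hebp2 and Arfgef3). For 5 of the 8 the libraries of both groups were fully separated, beside 66.7% of all genes. The median log2 fold change of the 8 was 0.03, beside -0.03 over all genes tested. By the study's thresholds (unadjusted p under 0.05 and at least 1.5-fold), 1 of the 8, Hebp2, passed with the fold on the log2(RPKM + 1) scale, beside 24.8% of all genes, and 2 of the 8, Hebp2 and Arfgef3, with the fold from the group means, beside 34.3%. The control libraries stood apart in seminal vesicle transcripts, whose 7 markers summed to between 19411 and 21910 RPKM in controls and between 647 and 1631 RPKM in the libraries labelled Arid1a KO, with all 7 lower. In bulk samples, fewer cells of a type and less RNA per cell cannot be told apart.

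**Figure D1:**
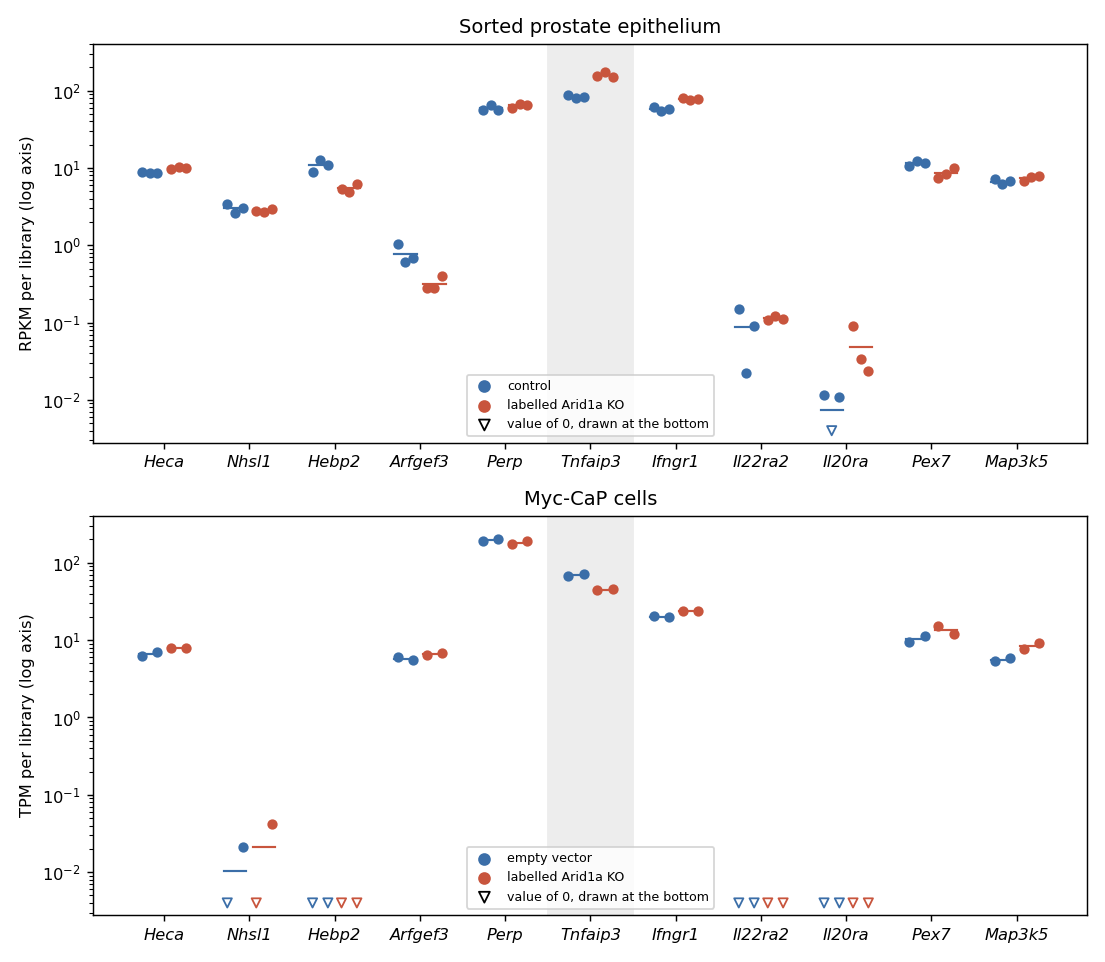
Values of Tnfaip3 (shaded) and its 10 neighbours in chromosome order, in RPKM for the epithelium (top) and TPM for Myc-CaP (bottom), on log axes. Each point is a library, horizontal lines are group means, and open triangles are values of 0. In the epithelium the groups are separate for Tnfaip3, Heca, Hebp2, Arfgef3, Ifngr1 and Pex7, and for Il20ra at 13 reads or fewer per group.

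Ifngr1, the ligand-binding chain of the interferon gamma receptor, was the neighbour with the largest rise. Its level was 60.9, 53.7 and 58.6 RPKM in controls A, B and C (3783, 4096 and 3834 reads) and 81.3, 75.4 and 77.0 RPKM in the libraries labelled Arid1a KO (5192, 4717 and 4654 reads). Every library labelled Arid1a KO lay above every control, with means of 57.7 ± 3.6 and 77.9 ± 3.0 RPKM (SD, n = 3), a ratio of 1.35. The log2 fold change was 0.43 ± 0.07 SE (adjusted p = 0.0015), and it passed in each of 15 alternative settings, from 0.38 to 0.60. Of 7 other genes of interferon gamma signalling, all were tested and 5 passed, 3 higher (among them the receptor's kinases Jak2, log2 fold change 0.999, and Jak1, 0.49) and 2 lower (Ifng, the cytokine itself, -0.83, among them). The list's median was 0.00.

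Il20ra and Il22ra2, next to Ifngr1, were close to absent. Il20ra, a chain of the receptor for IL-19, IL-20 and IL-24, had 1, 0 and 1 reads in controls A, B and C (at most 0.011 RPKM) and 8, 3 and 2 reads in the libraries labelled Arid1a KO (at most 0.089 RPKM). Il22ra2, the soluble decoy receptor that binds IL-22, had 11, 2 and 7 reads in controls and 8, 9 and 8 reads in the libraries labelled Arid1a KO, or 0.022 to 0.15 and 0.106 to 0.122 RPKM. Neither reached the mean for testing. When all genes were fitted without that filter (limma on log2(RPKM + 1)), the adjusted p was 0.18 for Il20ra and 0.61 for Il22ra2. At such low values the added 1 shrinks a change. Il20ra had a log2 fold change of 0.058 on that scale, with a ratio of means of 6.58 from 2 and 13 reads. This fit therefore could not decide whether either gene differed. Of the other 9 genes of the IL-20 and IL-22 system, 4 were tested and 3 passed, all higher, namely Il10rb (a receptor chain shared with IL-10, 0.58), Tyk2 (a kinase, 0.46) and Stat3 (0.46), and the median of the 4 was 0.46.

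Hebp2 had the largest fall on the log2(RPKM + 1) scale, while by the ratio of means and on recovered reads Arfgef3 fell more. It was at 8.93, 12.5 and 11.02 RPKM in controls A, B and C (505, 870 and 656 reads) and at 5.31, 4.90 and 6.27 RPKM in the libraries labelled Arid1a KO (309, 279 and 345 reads). The lowest control was above the highest library labelled Arid1a KO, although the controls were spread over a wider range, and the means were 10.8 ± 1.8 and 5.50 ± 0.70 RPKM (SD, n = 3). The control mean was 1.97 times the other, the log2 fold change was -0.86 ± 0.13 SE (adjusted p = 0.0011), and it passed in each of 15 alternative settings. Hebp1, its paralog on another chromosome, rose by 1.15 on the log2 scale.

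Arfgef3 was a low transcript that fell. Controls A, B and C had 1.05, 0.610 and 0.675 RPKM (255, 182 and 173 reads), and the libraries labelled Arid1a KO had 0.276, 0.282 and 0.401 RPKM (69, 69 and 95 reads). The groups did not overlap, with control A the highest. On the log2(RPKM + 1) scale the change was -0.42 ± 0.12 SE (adjusted p = 0.018), which understates a low gene, and on the recovered reads it was -1.27 (adjusted p = 0.0017, limma-voom), beside -1.01 for Hebp2. The control mean was 2.43 times the other. Without library A labelled Arid1a KO the adjusted p was 0.055, and without library B it was also 0.055. The related exchange factors Arfgef1 (0.49) and Arfgef2 (0.45) rose. With Hebp1 they made up 3 of 4 tested genes, of 6 listed, in the list of relatives of Arfgef3, Nhsl1 and Hebp2 that passed, and the list's median was 0.47.

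Pex7, the receptor that brings proteins with a PTS2 signal into peroxisomes, was at 10.6, 12.4 and 11.5 RPKM in controls A, B and C (592, 854 and 677 reads). It was at 7.37, 8.35 and 9.95 RPKM in the libraries labelled Arid1a KO (425, 471 and 543 reads). The groups did not overlap, but library C labelled Arid1a KO came close to control A. The log2 fold change was -0.39 ± 0.11 SE (adjusted p = 0.018). The call was lost without control B (adjusted p = 0.052), without library A labelled Arid1a KO (0.055) and without library B labelled Arid1a KO (0.055), and it was also lost after rescaling each library to the same sum (-0.23, adjusted p = 0.095) and after removal of a gene length trend (-0.25, adjusted p = 0.088). Of 13 genes of peroxisomal matrix import and PTS2 cargo, 13 were tested and 6 passed, 2 higher and 4 lower, with a median of -0.16. The transcripts of the cargo proteins did not move together. Phyh, an enzyme of phytanic acid breakdown, fell by 0.88 on the log2 scale, Acaa1a, a peroxisomal thiolase, fell by 0.40, and Agps, an enzyme of ether lipid synthesis, rose by 0.85. Acaa1b rose by 0.91, but it is a close copy of Acaa1a, and reads that fit both could have been split between them.

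Heca changed least among those that passed. It was at 8.94, 8.66 and 8.55 RPKM in controls A, B and C (1396, 1658 and 1404 reads) and at 9.80, 10.1 and 10.0 RPKM in the libraries labelled Arid1a KO (1572, 1593 and 1518 reads). Every library labelled Arid1a KO was above every control, by a ratio of means of 1.15. The log2 fold change was 0.18 ± 0.06 SE (adjusted p = 0.036), and this call was fragile. It was lost without control A (adjusted p = 0.062), without control C (0.12), and without libraries A (0.070), B (0.11) or C (0.074) labelled Arid1a KO. It was also lost on recovered reads (0.065) and after removal of a gene length trend (log2 fold change 0.08, adjusted p = 0.27). In all, Heca passed in 7 of 15 alternative settings.

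Perp, Map3k5 and Nhsl1 did not pass. Perp, the neighbour nearest to Tnfaip3, was at 55.6, 65.2 and 55.7 RPKM in controls A, B and C and at 59.6, 68.0 and 65.8 RPKM in the libraries labelled Arid1a KO. These groups overlapped (log2 fold change 0.13 ± 0.09 SE, adjusted p = 0.22), and without control B, the highest control, the change was 0.21 and passed (adjusted p = 0.042). Perp also passed after rescaling (0.31, adjusted p = 0.0094) and after removal of a gene length trend (0.27, adjusted p = 0.033). Perp is a target of p53 and a part of desmosomes, and other genes of both lists were counted, beside the 57.1% of all genes that passed. Of 11 other desmosome genes, 11 passed, 9 higher (Dsg3 2.81, Pkp1 1.68 and Dsc2 1.18 on the log2 scale among them) and 2 lower (Dsc3, -1.07, among them), with a median of 0.63. Of 9 other p53 targets, 9 were tested and 6 passed, all 6 higher, for example Cdkn1a (0.96), a cell cycle inhibitor, and Pmaip1 (0.91), a promoter of apoptosis, with a median of 0.50.

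Map3k5 was at 7.08, 6.11 and 6.70 RPKM in controls A, B and C and at 6.75, 7.66 and 7.76 RPKM in the libraries labelled Arid1a KO. The groups overlapped through library A labelled Arid1a KO, and the log2 fold change was 0.14 ± 0.08 SE (adjusted p = 0.19). It depended on scaling, at 0.29 (adjusted p = 0.032) after rescaling to the same sum and -0.05 (adjusted p = 0.61) after removal of a gene length trend. Of 13 other genes of its cascade, 13 were tested and 8 passed, 4 higher (Map2k3, 0.43, and Map2k4, 0.36, kinases that Map3k5 activates, among them) and 4 lower (its relative Map3k6, -1.09, and Mapk9, a JNK kinase, -0.50, among them), with a median of 0.00. Nhsl1 was at 3.44, 2.61 and 3.02 RPKM in controls A, B and C and at 2.81, 2.71 and 2.93 RPKM in the libraries labelled Arid1a KO. The latter lay within the range of the controls, and the log2 fold change was -0.07 ± 0.10 SE (adjusted p = 0.53), with -0.30 (adjusted p = 0.034) after removal of a gene length trend and 0.06 (adjusted p = 0.67) after rescaling.

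**Figure D2:**
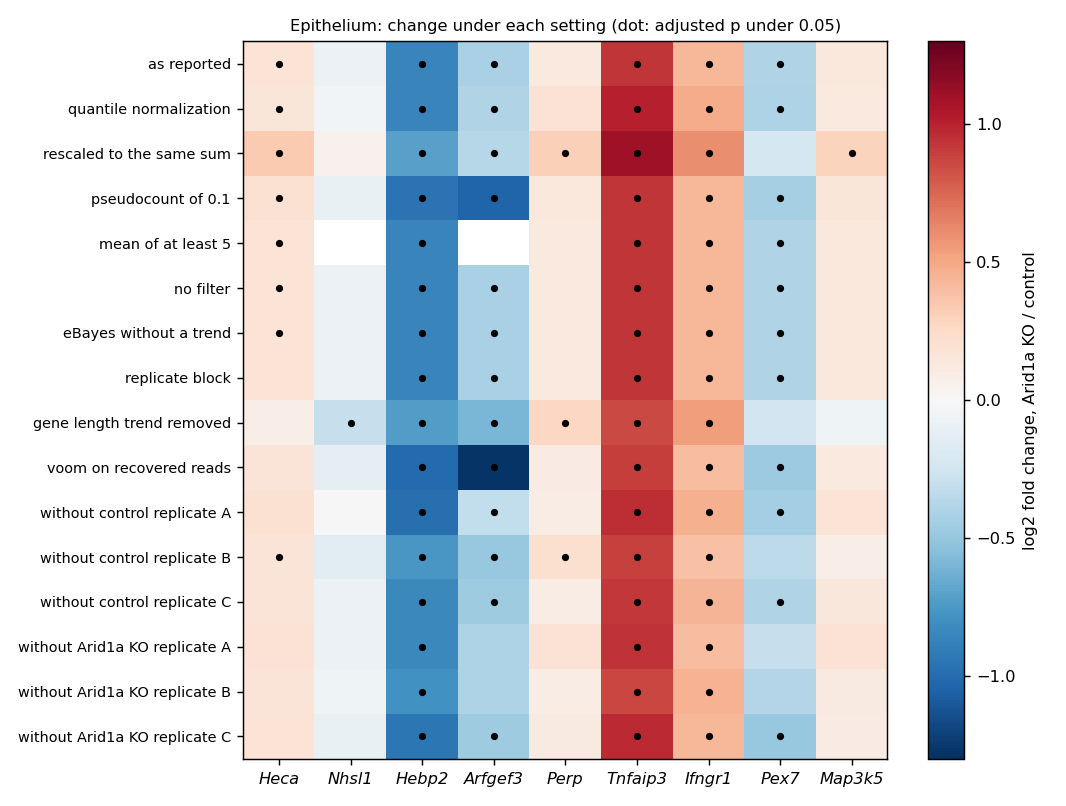
Log2 fold change of Tnfaip3 and the 8 tested neighbours in the epithelium (colour) as reported and under each alternative setting (vertical axis), with a dot where the adjusted p was under 0.05 and white where the gene was below the filter. Tnfaip3, Ifngr1 and Hebp2 hold a dot in every row, while Heca, Pex7 and Arfgef3 lose it in some rows and Perp, Map3k5 and Nhsl1 gain it in some.

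The level of the neighbours per length spanned a wide range in the control epithelium. Perp (58.8 ± 5.5 RPKM) and Ifngr1 (57.7 ± 3.6 RPKM) were close to each other within their spread and below Tnfaip3 (83.2 ± 4.2 RPKM, SD, n = 3). Pex7 (11.5 ± 0.9 RPKM) and Hebp2 (10.8 ± 1.8 RPKM) did not differ beyond their spread either, and the lowest Hebp2 value lay within the range of Heca (8.72 ± 0.20 RPKM). Heca, Map3k5 (6.63 ± 0.49 RPKM), Nhsl1 (3.03 ± 0.41 RPKM) and Arfgef3 (0.778 ± 0.236 RPKM) followed in order, each apart from the next, and then Il22ra2 (0.088 ± 0.064 RPKM) and Il20ra (0.0074 ± 0.0064 RPKM).

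Besides those of the seminal vesicle, the epithelium libraries differed in further marker transcripts, and the part of this in the neighbours' changes was not tested. Of 5 epithelial markers, 3 were lower, with sums between 3729 and 5078 RPKM in controls and between 3016 and 3423 RPKM in the others, and both groups expressed all 5. Ptprc, which encodes CD45, was at 28.6 ± 2.3 RPKM in controls and 57.3 ± 1.0 RPKM in the libraries labelled Arid1a KO (SD, n = 3), although the sort was for CD45- cells. Of 7 leukocyte markers 5 were higher and 1 lower, with summed levels that overlapped (3286 to 3575 and 3100 to 3444 RPKM). All 7 macrophage markers were higher (sums 1563 to 1861 and 2271 to 2760 RPKM). Of 5 B cell markers 4 were higher (124.8 to 140.0 and 429.6 to 751 RPKM). The neutrophil list had 4 of 7 higher with overlapping sums (337 to 475 and 386 to 637 RPKM), and the T cell list 3 of 6 higher (21.7 to 27.3 and 31.9 to 36.5 RPKM). Fibroblast markers had 3 of 6 lower (1683 to 2456 and 1401 to 1971 RPKM), smooth muscle markers 4 of 5 lower and 1 higher (113.8 to 133 and 96.0 to 118 RPKM), endothelial markers 1 of 4 higher (23.2 to 32.9 and 33.6 to 40.1 RPKM), and basal or squamous markers 5 of 6 higher (1380 to 1935 and 2765 to 3224 RPKM).

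In Myc-CaP, none of the neighbours passed while Tnfaip3 fell. Of the 10, 6 were tested and 0 passed with limma, beside 6.43% of the 13974 genes tested, 4.54% higher and 1.89% lower. At an unadjusted p under 0.05 were 2 of the 6 (Ifngr1 and Map3k5), and the share of all genes at that threshold was not counted. With limma-voom on recovered reads, 1 passed (Map3k5). Calls in this table rested on every library: with 1 of the empty vector libraries left out 51 or 53 of all genes passed, and with 1 of the Arid1a KO libraries left out 0 passed, and Tnfaip3 was then at an adjusted p between 0.098 and 0.12. By the study's thresholds 0 of the 6 passed with the fold on the log2(TPM + 1) scale, beside 6.28% of all genes, and 1 of the 6, Map3k5, with the fold from the group means, beside 7.41%. Of the 6, 5 had groups that did not overlap, beside 51.5% of all genes in either direction. All 5 were higher in Arid1a KO, and the share of all genes in that direction was not counted. For Pex7, among the 5, the nearest libraries of the groups had 166 and 171 reads. The median log2 fold change of the 6 was 0.23, beside -0.01 over all genes tested.

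Map3k5 had the largest difference of the 6 in Myc-CaP. It was at 5.31 and 5.81 TPM with the empty vector (440 and 424 reads) and 7.70 and 9.14 TPM in Arid1a KO (602 and 657 reads). Both Arid1a KO libraries lay above both empty vector libraries, with a ratio of means of 1.51. The log2 fold change was 0.52 ± 0.13 SE (adjusted p = 0.091), and on recovered reads it was 0.59 (adjusted p = 0.0082, limma-voom). Of 12 tested genes of its cascade, 0 passed with limma, and their median was -0.08.

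Ifngr1 was at 20.6 and 19.8 TPM with the empty vector and 23.9 and 23.6 TPM in Arid1a KO (320 to 415 reads). The groups did not overlap (log2 fold change 0.22 ± 0.07 SE, adjusted p = 0.16). Of 6 tested genes of the interferon gamma list 2 passed, both higher, among them Jak2 (0.88, adjusted p = 0.014), and the list's median was 0.30. Heca was at 6.19 and 7.08 TPM with the empty vector and at 8.01 TPM in both Arid1a KO libraries (log2 fold change 0.24 ± 0.11 SE, adjusted p = 0.30). Pex7 was at 9.45 and 11.4 TPM with the empty vector and 15.2 and 11.9 TPM in Arid1a KO (157 to 238 reads), with groups that lay next to each other (0.35 ± 0.15 SE, adjusted p = 0.29). Of 11 tested genes of the peroxisomal list 0 passed, with a median of 0.06.

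Arfgef3 was at 5.98 and 5.54 TPM with the empty vector and 6.49 and 6.74 TPM in Arid1a KO (351 to 441 reads), and the difference did not pass (0.17 ± 0.11 SE, adjusted p = 0.44). None of the 4 tested relatives of Arfgef3, Nhsl1 and Hebp2 passed, and their median was 0.01. Perp, the most abundant neighbour in these cells, was at 189 and 204 TPM with the empty vector and 174 and 192 TPM in Arid1a KO. These groups overlapped (-0.10 ± 0.07 SE, adjusted p = 0.50). Of 5 tested desmosome genes 1 passed, Pkp2, which fell by 0.60 on the log2 scale (the list's median was -0.10), and of 9 tested p53 targets 0 passed (median 0.07).

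The other 4 neighbours were not expressed above the floor in Myc-CaP. Hebp2, Il20ra and Il22ra2 had 0 reads in all 4 libraries. A count of 0 allows up to 3 reads, which is 0.179 to 0.207 TPM for Hebp2, 0.116 to 0.134 TPM for Il20ra and 0.139 to 0.160 TPM for Il22ra2, counting error only. Nhsl1 had 0 and 1 reads with the empty vector and 0 and 2 reads in Arid1a KO. The IL-20 and IL-22 system, with 4 of 9 genes at 0 in all libraries, had 4 tested genes of which 0 passed (median -0.15).

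**Figure D3:**
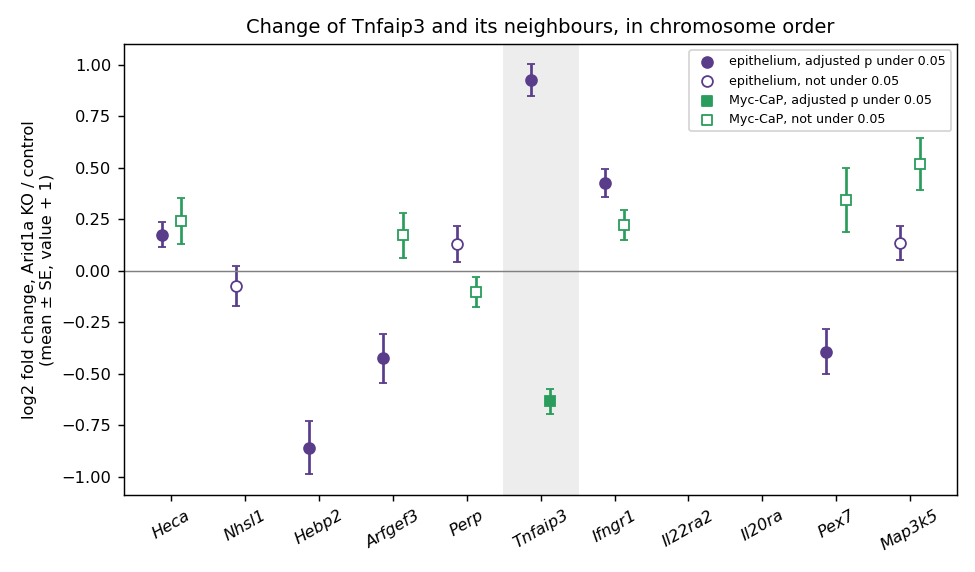
Log2 fold change of Tnfaip3 (shaded) and its neighbours in chromosome order, Arid1a KO over control, on the log2(value + 1) scale with SE bars, for the epithelium (circles, n = 3 per group) and Myc-CaP (squares, n = 2 per group). Filled symbols have an adjusted p under 0.05, and genes below the filter have no symbol. Tnfaip3 lies at 0.93 in the epithelium, above every neighbour tested there, and at -0.63 in Myc-CaP, below every neighbour tested there.

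Myc-CaP had little of the epithelial markers. Epcam was at 0 TPM in both empty vector libraries and at most 0.128 TPM in Arid1a KO, and Cdh1 was at most 0.386 TPM in any library. The 5 epithelial markers summed to between 0.940 and 1.42 TPM with the empty vector and 43.3 and 44.4 TPM in Arid1a KO, mostly from Krt8 (0.932 ± 0.201 and 39.6 ± 1.0 TPM, SD, n = 2). The basal or squamous markers had 2 of 3 tested higher (sums 289 to 301 and 513 to 546 TPM). The leukocyte markers summed to at most 5.52 TPM, those of neutrophils, macrophages, T cells, B cells, endothelium and seminal vesicle to at most 2.08 TPM each. Of all these lists, 1 leukocyte gene and 1 macrophage gene reached the mean for testing, and neither passed. Fibroblast markers summed to between 7.07 and 37.3 TPM with the empty vector and 5.89 and 16.5 TPM in Arid1a KO, smooth muscle markers to 1.28 to 10.5 and 1.85 to 6.29 TPM, and 0 genes of either list passed.

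The change of each neighbour was then set against that of Tnfaip3 within the same libraries. In the epithelium, all 8 tested neighbours had a lower log2 fold change than Tnfaip3 with an adjusted p under 0.05 (limma on the log2 difference from Tnfaip3). The gap ran from -0.50 ± 0.11 SE for Ifngr1 (adjusted p = 0.0011) to -1.78 ± 0.17 SE for Hebp2 (adjusted p = 5.2e-06). Of all genes, 91.4% differed from Tnfaip3 in this way, so the neighbours were not set apart by it. In Myc-CaP, all 6 tested neighbours differed from Tnfaip3 in the other direction, from 0.53 ± 0.07 SE for Perp (adjusted p = 0.0016) to 1.15 ± 0.11 SE for Map3k5 (adjusted p = 0.0011), beside 81.9% of all genes. These values share the Tnfaip3 values of each library and are not independent of each other.

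Position along the chromosome was described with the other genes around Tnfaip3. Within 0.5 Mb of its start, the tested genes were Perp, Arfgef3 and Hebp2 in the epithelium and Perp and Arfgef3 in Myc-CaP, with median changes of -0.42 and 0.04. Of the 3 in the epithelium, 2 passed, both lower (Arfgef3 and Hebp2), and 0 of the 2 in Myc-CaP passed with limma. None of them passed in the direction of Tnfaip3. Over all genes, 27.5% passed higher in the epithelium and 1.89% passed lower in Myc-CaP, and counts this small cannot be told apart from these shares. Within 1 Mb, 5 of 10 tested genes passed in the epithelium, 1 higher and 4 lower (median -0.15), and 0 of 8 passed in Myc-CaP with limma (median 0.18). The 3 tested genes of this window outside the list were Ccdc28a (-0.37, adjusted p = 0.015 in the epithelium and -0.20, adjusted p = 0.60 in Myc-CaP), Abracl (-0.20, adjusted p = 0.12 and 0.19, adjusted p = 0.39) and Reps1 (-0.11, adjusted p = 0.16 and 0.12, adjusted p = 0.28).

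Within 2 Mb, 8 of 17 tested genes passed in the epithelium, 3 higher and 5 lower (median -0.07), and 1 of 14 passed in Myc-CaP (median 0.15). The latter was Cited2, a transcriptional co-regulator 1292 kb from Tnfaip3, which rose (0.53, adjusted p = 0.012) and was chosen after its values were seen. It did not pass with any library left out or without a trend in eBayes. Within 5 Mb, 16 of 40 passed in the epithelium, 5 higher and 11 lower (median -0.08), and 2 of 29 in Myc-CaP, both higher (median 0.08). In each of these windows but the narrowest in the epithelium, the share that passed was below the 57.1% of all genes, and in Myc-CaP the shares for 2 Mb (7.14%) and 5 Mb (6.90%) were close to the 6.43% of all genes.

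**Figure D4:**
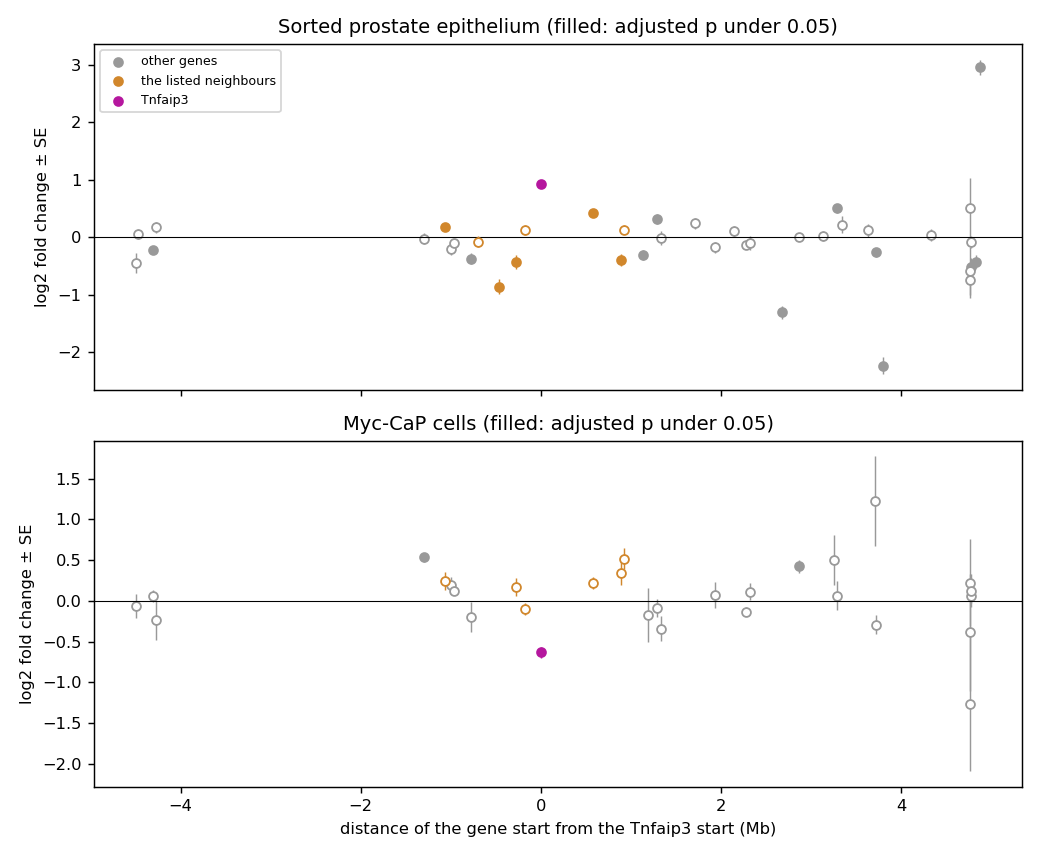
Log2 fold change with SE bars of every tested gene within 5 Mb of Tnfaip3, against the distance of its start from that of Tnfaip3 in Mb, in the epithelium (top) and Myc-CaP (bottom). Filled symbols have an adjusted p under 0.05. Among the genes within 2 Mb, Tnfaip3 has the largest rise in the epithelium and the largest fall in Myc-CaP, and its neighbours scatter on both sides of 0 in the epithelium. Farther out, a larger rise is drawn in the epithelium and a larger fall, with an adjusted p not under 0.05, in Myc-CaP.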

How the data were processed

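RNA-seq was made from sorted epithelium and Myc-CaP cells. Per the study's methods, alignment to GRCm38 by the authors was with TopHat2 and counting per gene with HTSeq-count, while the submitters' processing notes name HISAT2, HTSeq and DESeq2 with mm10, so the aligner is not settled. The deposited values are RPKM for the epithelium (scaled by gene length and mapped reads) and TPM for Myc-CaP (scaled to the same sum), with gene lengths not stated. The tables were normalized separately, so no test crosses them.

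Groups came from the genotype labels. In both units the values of a gene were whole multiples of what 1 read is worth, and whole reads were recovered for 99.9% of genes seen in 2 or more libraries of either table. They summed to between 25665817 and 31526574 reads per epithelium library and between 16780554 and 18809372 per Myc-CaP library. The floor for genes at 0 in Myc-CaP used the lengths behind the RPKM table, which matched those behind the TPM table for 90.1% of genes. Floors cover counting error only.

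Values were taken as log2(value + 1), which understates the change of low genes. A mean of at least 0.5 was required, and genes were fitted with limma 3.58.1 (lmFit, eBayes with a trend, R 4.3.3), each table on its own with 2 groups and no covariate, as two-sided tests with Benjamini-Hochberg adjustment over all genes of the table. With 2 libraries per group the test rests mainly on variance pooled over genes. The study used DEGseq on counts. The difference from Tnfaip3 was tested by subtracting its log2 value in each library first. Scripts were tested on simulated data. The alternatives were quantile normalization, rescaling to the same sum, a pseudocount of 0.1, a minimum mean of 5 or none, no trend, a replicate block, removal of a gene length trend, leaving out each library, and the study's thresholds. Limma-voom on recovered reads and the study's thresholds with the fold from the group means were chosen after seeing the data.

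The 10 genes, the lists of related genes and the marker lists were chosen with earlier results of these data known. The text names all 10, Tnfaip3, Arid1a, up to 4 passing genes of each list by size of change, and the tested genes within 1 Mb of Tnfaip3. Positions came from RefSeq on GRCm38, which matched 75.3% of rows and 89.7% of tested epithelium genes by symbol. A further allele and a listed gene are not reported here by name.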

Additional observations from a re-analysis of the deposited data

Results flagged for a closer look

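Arfgef3 and Pex7 were separated between groups in opposite directions in the 2 systems. Arfgef3 had a log2 fold change of -0.42 in the epithelium, where every library labelled Arid1a KO was below every control, and 0.17 in Myc-CaP, where both Arid1a KO libraries were above both empty vector libraries. Pex7 had -0.39 in the epithelium and 0.35 in Myc-CaP, where the nearest libraries of the 2 groups had 166 and 171 reads. Groups were fully separated, in either direction, for 66.7% of all genes in the epithelium and 51.5% in Myc-CaP. The tables were normalized separately, so the difference between the systems was not tested, and neither gene passed in Myc-CaP (limma).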

How the results depend on the processing

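Ifngr1 and Hebp2 passed in the epithelium under all 15 alternatives and Arfgef3 in 12 of 14, while Heca passed in 7 of 15 and Pex7 in 10 of 15. No tested neighbour that passed changed direction. Of those that did not, Map3k5 turned to -0.054 after removal of a gene length trend, and Nhsl1 to 0.059 after rescaling, and ranged from -0.15 to 0.00065 when each library was left out (the latter without control A). Leaving out each library gave 2 to 5 passing neighbours and 5 to 8 passing genes within 2 Mb in the epithelium. Of all 16275 genes, 7784 to 8858 passed in these fits. In Myc-CaP each such fit left 1 library in a group, and the log2 fold change of Tnfaip3 ran from -0.68 to -0.59. By the study's thresholds with the fold on the log2(value + 1) scale, 1 neighbour and 1 gene within 2 Mb passed in the epithelium and 0 genes within 2 Mb in Myc-CaP, and with the fold from the group means 2 neighbours and 2 genes within 2 Mb in the epithelium and 1 neighbour in Myc-CaP. The cause of these differences was not tested.

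Rescaling the epithelium libraries to the same sum moved the median of all genes from -0.03 to 0.11. Relative to that median, Ifngr1 was at 0.49, Heca 0.23, Perp 0.20, Map3k5 0.18, Pex7 -0.34, Arfgef3 -0.47 and Hebp2 -0.81. Replicate letters did not pair the epithelium libraries: deviations from the group means correlated at 0.041, 0.0094 and -0.057 for letters A, B and C across genes. In Myc-CaP these deviations correlated at 0.19 for libraries of the same number and at -0.19 for the others. With 2 libraries per group these are mirror images of a single value. No label says what a number shares, so whether numbers pair the Myc-CaP libraries was not settled. Under a replicate block, 1 neighbour (Map3k5, adjusted p = 0.028) and 3 genes within 2 Mb passed in Myc-CaP, where 2771 genes passed in place of 899, and Heca was lost in the epithelium (adjusted p = 0.087). On recovered reads, 1 neighbour and 2 genes within 2 Mb passed in Myc-CaP, with 1532 genes in all, and without a trend in eBayes 0 genes within 2 Mb passed, with 451 in all. Without a filter on low values 358 Myc-CaP genes passed. With a mean of at least 5, 9027 epithelium genes were tested and 5872 passed. By the study's thresholds on the log2(value + 1) scale 4037 passed. With limma, the difference from Tnfaip3 passed for every neighbour tested under each setting of filter, scaling, trend and block. With a filter these were 6 or 8 neighbours in the epithelium and 6 in Myc-CaP. In the epithelium, 8 passed in each fit that left out a library. Without a filter the counts were 10 and 7. The genes this added, Il20ra and Il22ra2 in the epithelium and Nhsl1 in Myc-CaP, had values near 0. Their difference mostly restates the change of Tnfaip3, so their pass does not describe these genes. By the thresholds of the study the difference passed for 7 neighbours in the epithelium and 5 in Myc-CaP.

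With 2 libraries per group in Myc-CaP, and a lone library assumed to vary like the others when 1 is left out, a missed threshold does not show that a gene did not change.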
